A study of Mus musculus with 2 samples.

Results

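The Pou5f1 enhancer contacts of chromosome 17 that lay between 15 Mb and 33 Mb from the gene were examined at the level of single HindIII sites. Enzyme-based 4C-Seq had been carried out on E14, an established line of mouse embryonic stem (ES) cells kept in serum with LIF, in 2 replicates of 1 group without treatment and without a control group. The 232 sites described here are the chromosome 17 entries of the deposited table of contacted HindIII sites whose start lay at least 15 Mb and less than 33 Mb from the start of Pou5f1 (chromosome 17, 35642982, mm9). The table holds 1806 sites in all, of which 1216 were on chromosome 17: 756 closer than 15 Mb, these 232, and 228 at 33 Mb or more. The table holds only sites inside enriched regions found in both replicates, so its gaps come partly from how regions were called, and contacts outside those regions were not analysed here. Membership rests on position alone. The files hold positions and no counts of reads, so they do not show the depth of any single site, and the totals the study gives per library were not used here. The table has no column for the replicate.

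Pou5f1 encodes Oct4, a transcription factor that keeps ES cells pluripotent, and the bait of the experiment was an enhancer upstream of it. In enzyme-based 4C-Seq, DNA that lies close together in the nucleus is cross-linked, cut with HindIII and ligated. A second cut with DpnII and a further ligation give small circles, from which the partners of the bait are amplified by inverse PCR and read. Contacts of a bait with its own chromosome are known to become rarer with distance, and beyond a few megabases they are known to favour stretches of chromatin of a similar kind, such as gene-dense, GC-rich DNA for an active gene.

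All 232 sites lay downstream of Pou5f1, from 20.06 Mb to 31.52 Mb. They fell into 2 regions that the authors had called in each replicate. The region called near here held 119 sites and the region called far held 113. The last chromosome 17 site before them lay at 13.10 Mb and the first site beyond them at 35.23 Mb, so no listed site was close to either limit of the rule.

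The first and last listed sites of each region are shown first, since they mark the stretch that the table covers there. Each is given with 30 bases on either side on the plus strand of mm9, with the HindIII motif in capitals.
First site of the near region, chr17:55704019-55704084: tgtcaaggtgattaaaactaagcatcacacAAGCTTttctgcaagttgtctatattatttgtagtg
Last site of the near region, chr17:57477551-57477616: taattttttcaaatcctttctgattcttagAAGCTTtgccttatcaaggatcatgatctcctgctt
First site of the far region, chr17:65549799-65549864: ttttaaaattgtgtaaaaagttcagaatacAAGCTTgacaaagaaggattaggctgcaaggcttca
Last site of the far region, chr17:67162068-67162133: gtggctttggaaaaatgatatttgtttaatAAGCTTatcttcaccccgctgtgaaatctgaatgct

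The first 3 of these sites lay outside protein-coding genes, and the last was in an intron of Ptprm, which encodes a receptor tyrosine phosphatase that mediates cell adhesion. The GC content within 500 bases of the motif was 40.3%, 44.2%, 38.7% and 42.8% in this order, below the median of 47.9% over the 232 sites.

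The listed sites closest to a gene start are shown next, leaving out windows that overlap an annotated untranslated region. Such sites place a HindIII end beside a promoter.
Near region, 52 bases upstream of Cd70, chr17:57289222-57289287: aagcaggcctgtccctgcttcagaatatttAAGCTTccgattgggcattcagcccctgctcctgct
Far region, 605 bases upstream of Rab12, chr17:66869632-66869697: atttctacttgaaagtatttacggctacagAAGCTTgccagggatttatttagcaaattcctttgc

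Cd70 encodes a TNF family ligand of lymphocytes and dendritic cells, and Rab12 a small GTPase of endosomal traffic. The nearest DpnII motifs lay 487 and 434 bases to the left and right of the Cd70 site and 171 and 96 bases from the Rab12 site.

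The longest run of neighbouring HindIII motifs that were all listed held 7 sites in the introns of Rfx2, which encodes a transcription factor of ciliated and spermatogenic cells. It spanned 35759 bases of the near region (chromosome 17, 56920981 to 56956739). The first 6 of its sites are shown because they are consecutive motifs of 1 gene with no unlisted motif between them.
Rfx2 run, site 1, chr17:56920951-56921016: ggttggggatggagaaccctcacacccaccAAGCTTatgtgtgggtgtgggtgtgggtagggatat
Rfx2 run, site 2, chr17:56926606-56926671: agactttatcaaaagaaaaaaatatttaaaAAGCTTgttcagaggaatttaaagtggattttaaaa
Rfx2 run, site 3, chr17:56932199-56932264: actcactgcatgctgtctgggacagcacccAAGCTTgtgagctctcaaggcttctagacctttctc
Rfx2 run, site 4, chr17:56934442-56934507: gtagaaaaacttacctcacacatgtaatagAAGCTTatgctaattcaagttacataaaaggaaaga
Rfx2 run, site 5, chr17:56944199-56944264: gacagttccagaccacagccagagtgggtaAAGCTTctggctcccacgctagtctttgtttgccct
Rfx2 run, site 6, chr17:56956073-56956138: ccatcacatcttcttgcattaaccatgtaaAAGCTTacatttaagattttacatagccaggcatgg

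The GC content within 500 bases of these 6 sites was 52.6%, 51.7%, 52.3%, 34.9%, 55.6% and 51.6%, so the run held 1 site in an AT-rich stretch among GC-rich ones. The distance to the nearest DpnII motif differed just as widely, from 32 bases at site 3 to 165 bases at site 5.

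The near region was called from 55660104 to 57882023 in replicate 1 (2.22 Mb) and from 55598230 to 57787956 in replicate 2 (2.19 Mb). Both replicates covered 2.13 Mb of it, or 93.2% of its merged length. The far region was called from 65549780 to 67199161 in replicate 1 (1.65 Mb) and from 65754951 to 67086615 in replicate 2 (1.33 Mb), and both covered 80.7% of its merged length. All 232 sites lay in a region of replicate 1, and 223 also lay in a region of replicate 2. The other 9 were among the 90 HindIII motifs of the far region that replicate 1 alone covered. In the near region, neither the 28 motifs covered by replicate 1 alone nor the 19 covered by replicate 2 alone were listed. Between the 2 regions lay 7.67 Mb with 2476 HindIII motifs, none of them in a called region of either replicate. This interval was AT-rich, with a median GC content of 38.7% within 5000 bases of a motif, and held 13 starts of protein-coding genes, or 1.70 per Mb. The near region held 69 such starts (31.1 per Mb) and the far region 15 (9.09 per Mb).

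Since a site can be listed only where HindIII cuts, the listed sites were set against all HindIII motifs (AAGCTT) of the reference in the same regions. The share of motifs listed was 119 of 557 in the near region (21.4%, exact 95% interval 18.0 to 25.0%) and 113 of 532 in the far region (21.2%, 17.8 to 25.0%). The near region thus held 0.124 percentage points more, with an interval of the difference from -4.88 to 5.11 percentage points, and the direction turned under other settings. The intervals of shares are Clopper-Pearson, those of medians come from order statistics and those of differences combine these. They cover counting error only, and treat neighbouring motifs as independent, which they are not. No test was made, because both replicates belong to 1 group and the table does not separate them.

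Both regions stood well below the regions closer to the bait. Over all shared regions of chromosome 17, leaving out a stretch without listed sites around Pou5f1, 29.4% of motifs were listed (1216 of 4139, 28.0 to 30.8%). The share was 40.6% in the regions within 15 Mb (756 of 1862, 38.4 to 42.9%), 21.3% over the near and far regions together (232 of 1089, 18.9 to 23.9%) and 19.2% in the regions at 33 Mb or more (228 of 1188, 17 to 21.5%). The step from the closer regions to these sites was 19.3 percentage points (15.9 to 22.6). The step from these sites to the farther regions was 2.11 percentage points (-1.25 to 5.48), which does not exceed the counting error. With only motifs whose flanks of 30 bases were unique in the genome, it was 4.55 percentage points (0.856 to 8.26), which does. In the stretches covered by both replicates it was 2.18 (-1.70 to 6.02). With the regions of replicate 2 alone it was 7.28 (3.91 to 10.7), but this setting adds motifs covered by replicate 2 alone, none of which was listed in any of the 10 regions, and drops those covered by replicate 1 alone.

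**Figure D1:**
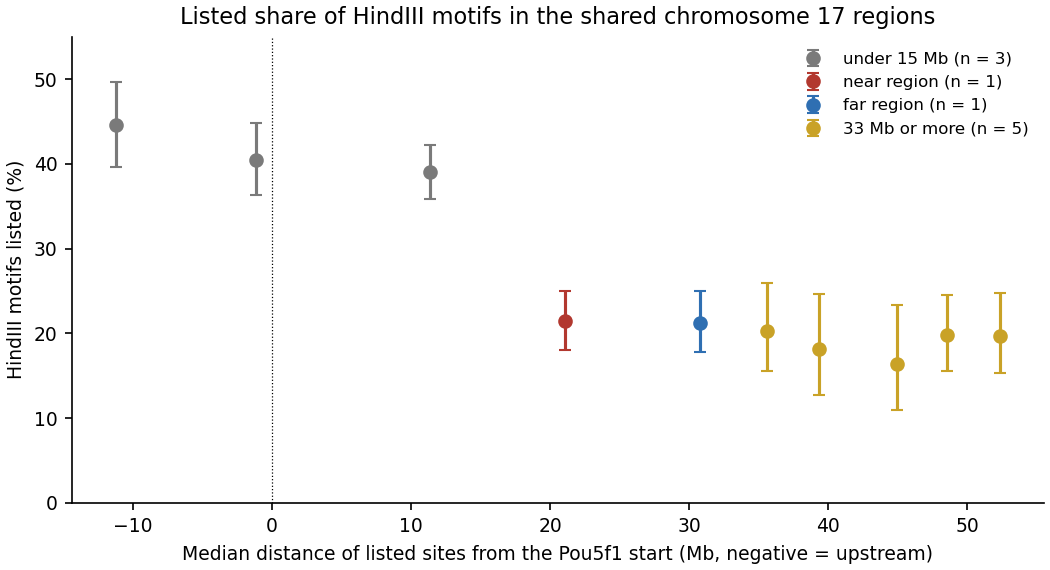
Share of HindIII motifs listed (%) in each of the 10 shared regions of chromosome 17, against the median distance of its listed sites from Pou5f1 in Mb; points are regions and bars are exact 95% intervals. The 3 regions within 15 Mb sit at 39.0% to 44.6% and the near and far regions at 21.4% and 21.2%, with intervals that overlap those of the 5 farther regions (16.4% to 20.3%).

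The listed sites were unevenly spread within the near region. They followed a GC-rich, gene-dense block of 1.40 Mb. When the near region was divided by GC content alone, 14 consecutive bins of 100 kb with at least 46% GC held 109 of its 119 sites. In this block (56102141 to 57498106) 109 of 299 motifs were listed (36.5%, 31.0 to 42.2%). In the 0.440 Mb before it 10 of 136 motifs were listed (7.35%, 3.58 to 13.1%), and in the 0.372 Mb after it none of 122 (0%, upper limit 2.98%). The block held 58 gene starts, the stretch before it 9 and the stretch after it 1. The start of Emr1 (57498109) lies just past the last motif of the block and is in none of these counts. The sites ended well before the called region did. After the last listed site, 131 unlisted motifs over 0.404 Mb still belonged to the region of replicate 1, compared with 13 motifs over 0.0371 Mb at the end of the far region.

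The stretches also differed in how often the flanks of a motif were repeated elsewhere. A motif was counted as having unique flanks when the 30 bases on each side were next to no further HindIII motif anywhere in the genome. This held for 96.3% of the motifs of the GC-rich block, for 66.9% before it and for 56.6% after it. With unique motifs alone, the listed shares were 37.5% (108 of 288), 11% (10 of 91) and 0% (0 of 69, upper limit 5.21%), so the order of the 3 stretches was the same.

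In the far region the sites reached over nearly its whole length, with 1.61 Mb between the first and the last, but they were not evenly spread. In bins of 200 kb the listed share ran from 4.48% (3 of 67, at 31.46 Mb) to 38.0% (27 of 71, at 31.06 Mb). The highest share in a 100 kb bin was 42.4% (14 of 33 motifs, 25.5 to 60.8%), at 31.01 Mb from Pou5f1. That of the near region was 75.0% (12 of 16, 47.6 to 92.7%), at 21.31 Mb, in the bin that holds Rfx2. The interval of the densest near bin is wide, both bins were picked as the highest of their region, and the gap between them varied with bin width. In bins of 50 kb with at least 10 motifs, the highest share was 60.0% in both regions. These were 6 of 10 near motifs (at 20.98 Mb, outside Rfx2) and 9 of 15 far motifs (at 31.03 Mb). The limit of 10 motifs left out smaller near bins with higher shares, such as 77.8% at 21.33 Mb (7 of 9). In bins of 200 kb the highest shares were 52.6% in the near region (20 of 38) and 38.0% in the far region (27 of 71). Across 39 bins with at least 10 motifs, the listed share went with GC content (Pearson r = 0.71, Spearman rho = 0.73), with the share of unique motifs (r = 0.68, rho = 0.69) and with the number of gene starts (r = 0.52, rho = 0.62). These correlations are descriptions over neighbouring bins of the same 2 regions, which share replicates and base composition. They were weaker in the 17 bins of the far region (r = 0.53 for GC content) than in the 22 of the near region (r = 0.76), and the difference was not tested.

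**Figure D2:**
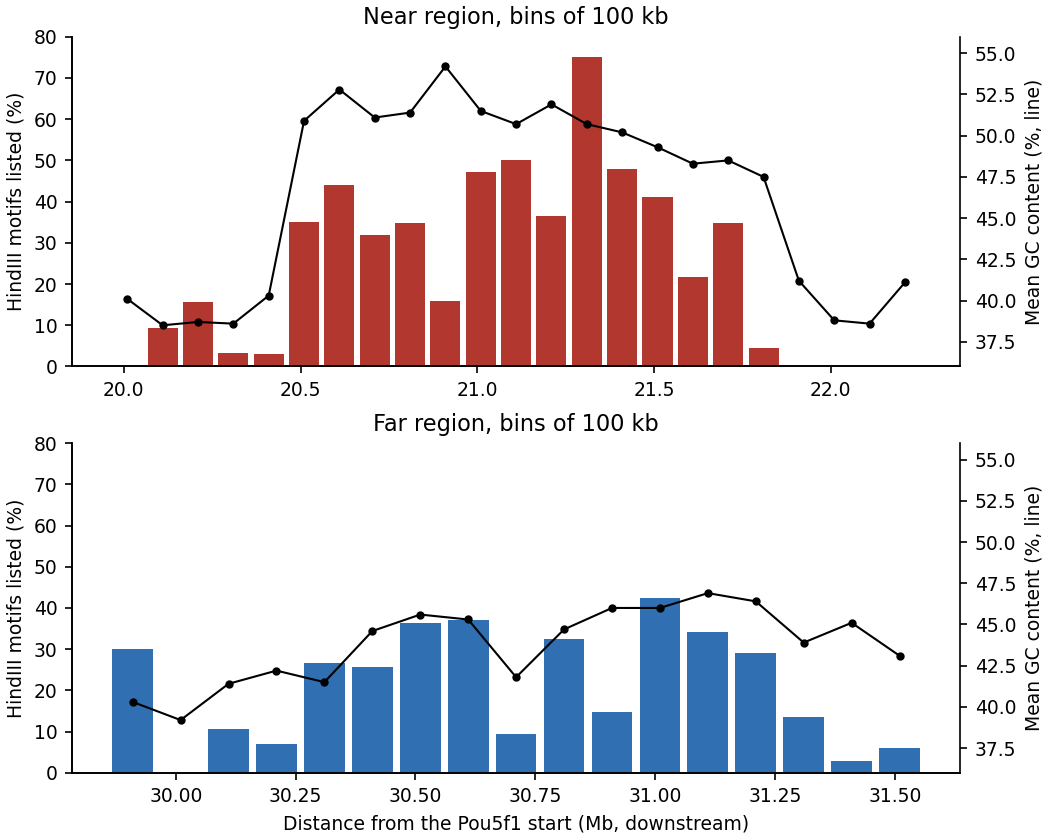
Share of HindIII motifs listed (%, bars) and mean GC content within 5000 bases of the motifs (%, line, right axis) in bins of 100 kb, against distance from Pou5f1 in Mb, for the near region (upper) and the far region (lower). In the near region the bars rise and fall with the GC-rich block and reach 75.0%. In the far region they lie at 42.4% or below and run to the end, where they are low (2.94% and 6.06%).

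Listed motifs were richer in GC than unlisted motifs within both regions. The median GC content within 500 bases was 50.6% (interval of the median 49.5 to 52.2%) for listed motifs and 43.1% (41.9 to 43.9%) for unlisted motifs of the near region. In the far region it was 45.6% (44.3 to 46.3%) against 43.6% (42.9 to 44.0%). The difference was 7.50 percentage points (6.12 to 9.46) in the near and 1.99 (0.636 to 2.97) in the far region.

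With motifs grouped by GC content within 5000 bases, the listed share over both regions rose class by class. It was 7.40% under 42% GC (29 of 392), 19.0% from 42 to 46% (52 of 273), 30.3% from 46 to 50% (69 of 228) and 41.8% at 50% or more (82 of 196). The near and far regions differed in their mixture of these classes. Under 42% GC, 4.13% of near motifs (10 of 242) and 12.7% of far motifs (19 of 150) were listed, a difference of -8.53 percentage points (-15.3 to -2.64). With unique flanks alone the shares of this class were 6.58% (10 of 152) and 14.5% (19 of 131). From 46 to 50% GC the shares were 29.9% and 30.5%. At 50% GC or more there were 186 near motifs, 41.9% of them listed, and only 10 far motifs, 4 of them listed.

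The comparison with the other regions of chromosome 17 changed with GC content as well. Under 42% GC the near and far regions together lay below the farther regions, 7.40% against 17.3% (difference -9.92 percentage points, -15.9 to -4.36). At 50% GC or more they lay above them, 41.8% against 26.0% (difference 15.9, 2.62 to 27.7). The closer regions were higher in each of the 4 classes, from 24.4% under 42% GC to 58.6% at 50% or more.

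**Figure D3:**
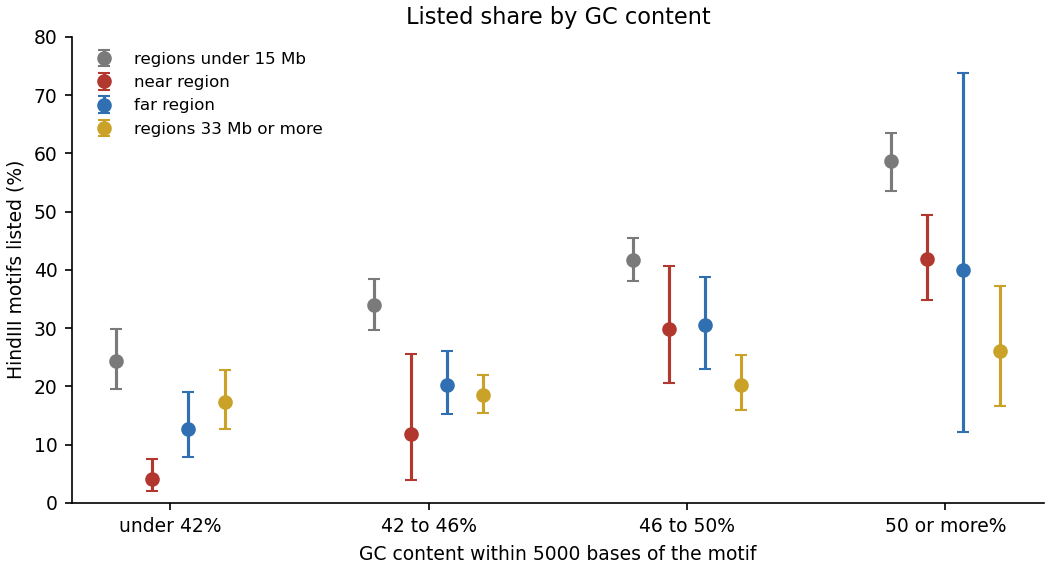
Share of HindIII motifs listed (%) by GC content within 5000 bases, for the regions within 15 Mb, the near region, the far region and the regions at 33 Mb or more; points are shares and bars exact 95% intervals. The shares of the near and far regions climb from 4.13% and 12.7% to 41.9% and 40.0%, whereas the farther regions run from 17.3% to 26.0%.

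Listed sites lay closer to gene starts than unlisted motifs. The median distance to the nearest start of a protein-coding gene was 7517 bases for listed and 16924 bases for unlisted motifs of the near region, and 25312 against 48058 bases in the far region. Over both regions 26.7% of listed sites (62 of 232, 21.1 to 32.9%) and 14% of unlisted motifs (120 of 857, 11.7 to 16.5%) lay within 5 kb of a start. The difference of 12.7 percentage points (6.61 to 19.3) exceeds its counting error. By distance, 40.7% of motifs within 2 kb of a start were listed (33 of 81), 29.0% from 2 to 10 kb (69 of 238), 22.5% from 10 to 50 kb (100 of 445) and 9.23% beyond 50 kb (30 of 325).

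Gene starts and GC content overlap, so the motifs were also divided by both. Among motifs with at least 46% GC, 41.4% within 10 kb of a start (87 of 210, 34.7 to 48.4%) and 29.9% farther away (64 of 214, 23.9 to 36.5%) were listed. Among motifs under 46% GC, the shares were 13.8% (15 of 109, 7.91 to 21.7%) and 11.9% (66 of 556, 9.30 to 14.9%). Over both regions and at these limits, the gap between GC classes was thus wider than that between distances. In the far region alone the gap between GC classes was narrower. With at least 46% GC, 17 of 44 far motifs (38.6%) were listed within 10 kb and 30 of 107 (28.0%) farther away. Under 46% GC the values were 10 of 48 (20.8%) and 56 of 333 (16.8%).

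**Figure D4:**
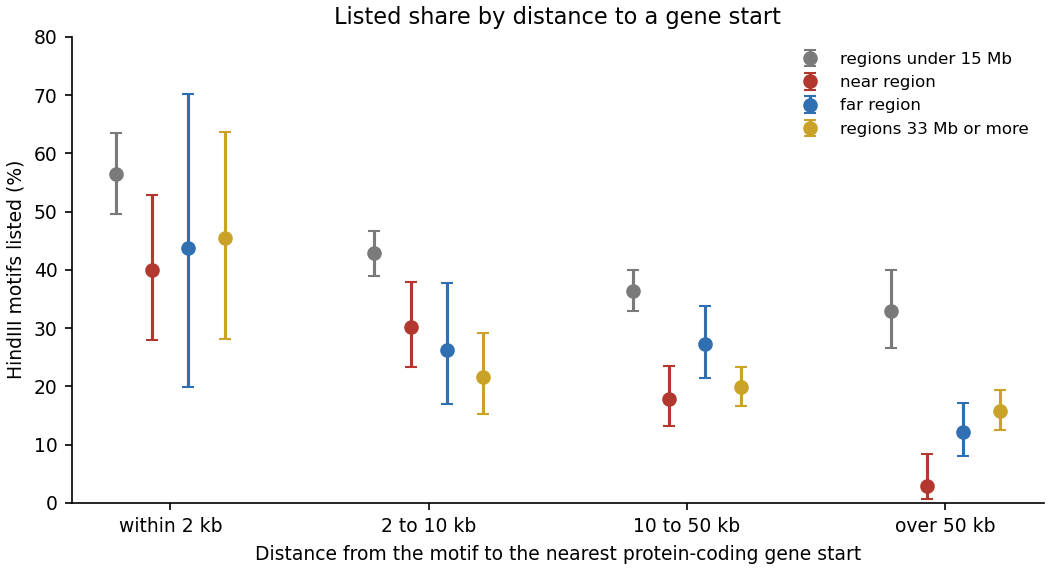
Share of HindIII motifs listed (%) by distance to the nearest start of a protein-coding gene, for the same 4 sets of regions; points are shares and bars exact 95% intervals. In the near region the share falls from 40.0% within 2 kb to 2.97% beyond 50 kb. In the far region it is 43.8% within 2 kb (7 of 16 motifs), 26.3% and 27.3% in the middle classes and 12.1% beyond 50 kb.

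Introns held 58.6% of listed and 57.6% of unlisted motifs. Of the 119 near sites, 66 lay in introns, 10 in coding exons, 8 in untranslated regions and 35 outside protein-coding genes. Of the 113 far sites, 70 lay in introns, 2 in coding exons, 5 in untranslated regions, 2 in other exons and 34 outside. Exonic motifs were listed more often than others: 27 of the 59 exonic motifs of both regions were listed (45.8%, 32.7 to 59.2%), compared with 136 of 630 intronic motifs (21.6%, 18.4 to 25.0%). The 2 regions differed in how listed and unlisted motifs lay in genes as a whole, a contrast that was not tested. In the near region 70.6% of listed and 52.5% of unlisted motifs lay inside protein-coding genes, while in the far region, much of which is taken up by long genes, the values were 69.9% and 70.6%. Over both regions the difference was 8.88 percentage points (1.75 to 15.6), and with unique flanks alone it was 4.76 (-2.52 to 11.7), within the counting error.

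Motifs with repeated flanks were nearly free of listed sites: 2 of 160 motifs without unique flanks were listed (1.25%, 0.152 to 4.44%), compared with 230 of 929 with unique flanks (24.8%, 22 to 27.7%). These 2 sites are shown because they are the exceptions. Each has 1 flank that occurs at 2 HindIII motifs of the genome and 1 flank that occurs once.
Coding exon of Ccdc94 (now Yju2), chr17:56103586-56103651: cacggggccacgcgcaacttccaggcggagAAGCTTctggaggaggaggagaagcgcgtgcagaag
Intron of Rab31, chr17:66044046-66044111: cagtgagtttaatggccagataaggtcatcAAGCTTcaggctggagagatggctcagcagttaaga

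The position of DpnII motifs was compared next. A motif with DpnII on both sides, meaning a DpnII motif before the next HindIII motif on each side, was listed in 20.6% of cases in the near region (99 of 481) and any other motif in 26.3% (20 of 76). In the far region the order was the opposite, 22.2% (96 of 433) against 17.2% (17 of 99). Over both regions the shares were 21.3% and 21.1%. The median distance to the nearest DpnII motif was 160 bases for listed and 113 bases for unlisted motifs of the near region, and 125 against 119 bases in the far region. Over both regions the difference in medians was 17.5 bases, with an interval from -7.62 to 48.4 bases.

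Neighbouring motifs tended to be listed together in the near region. Its 119 sites formed 72 runs of consecutive listed motifs, 26 of them of 2 or more, and 73 sites lay in such runs. The 113 far sites formed 85 runs, and 45 sites lay in runs of 2 or more. The share of motifs with a listed neighbour was higher for listed than for unlisted motifs by 33 percentage points (22.7 to 42.8) in the near region and by 6.17 (-4.08 to 16.8) in the far region, where the counting error is not exceeded. The near value pools stretches with listed shares of 7.35%, 36.5% and 0%. It therefore does not separate clustering of neighbours from this unevenness, and clustering within a stretch was not tested. After the run in Rfx2, the longest runs held 5 sites. The first began at a motif between the divergent genes Acsbg2 and 1700061G19Rik (now Acsbg3), which encode acyl-CoA synthetases, and the second lay just outside 1110012J17Rik in the far region (66663597 to 66681281). Neighbouring sites were a median of 9.50 kb apart in the near and 7.04 kb apart in the far region. The widest gap, 123457 bases with 30 unlisted motifs (65598702 to 65722159), lay mostly within Tmem232. In the near region the widest gap was 95408 bases with 36 unlisted motifs (55943076 to 56038484), which covers the zinc finger genes Zfp119a and Zfp959.

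Of the 85 protein-coding genes that overlap the 2 regions, 72 had a HindIII motif in the gene body and 54 of these (75.0%) held a listed site. Over all shared regions of chromosome 17 the share was 82.8% (251 of 303 genes). All 15 genes with a motif in the far region held a site, compared with 39 of 57 (68.4%) in the near region. Far genes are long and hold many motifs, so the counts of sites per gene are given with the motifs they come from.

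The gene with the most sites was 1110012J17Rik (now Mtcl1) in the far region, with 15 of 42 motifs listed (35.7%, 21.6 to 52.0%). It encodes a protein that cross-links microtubules. Rab31, for a small GTPase of vesicle transport, followed with 11 of 41 (26.8%, 14.2 to 42.9%). Rfx2 held 7 of 8 (87.5%, 47.3 to 99.7%), the highest share among genes with at least 5 sites. Of the genes with 6 sites, Ddx11, for a DNA helicase needed for sister chromatid cohesion, had 9 motifs, and Vapa, for a tether at the endoplasmic reticulum, had 16. Ppp4r1, for a regulatory subunit of protein phosphatase 4, had 17.

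Tmem232 also held 6 sites, but among 93 motifs (6.45%, 2.40 to 13.5%). Counting motifs with unique flanks alone, Tmem232 held 6 of 75, Rab31 10 of 36 and 1110012J17Rik 15 of 42. Its motifs had a median GC content of 41.2%, compared with 45.2% for Rab31 and 47.1% for 1110012J17Rik. Ankrd12, for a nuclear cofactor, held 5 of 37 (13.5%) at a median GC content of 41.3%. Ptprm, whose body reaches beyond the far region, held 3 of the 62 motifs inside it (4.84%) at a median of 44.9%. Share and GC content did not run together in every gene. Vapa had 37.5% listed at a median GC content of 37.2% and Ndufv2 23.1% at 40.3%, and the low share of Ptprm stands beside a GC content close to that of Rab31.

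Rab12 (5 of 10) and Ptprs (5 of 16) held 5 sites each. Ptprs encodes a receptor tyrosine phosphatase of axon growth. Genes with 4 sites were 1700061G19Rik (4 of 4), Sh3gl1 (4 of 6), Kdm4b (4 of 12), Ranbp3 (4 of 13) and Pot1b (4 of 21), all of the near region. Sh3gl1 encodes endophilin A2 of endocytosis, Kdm4b a histone H3 lysine 9 demethylase, and Ranbp3 a cofactor of nuclear export.

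**Figure D5:**
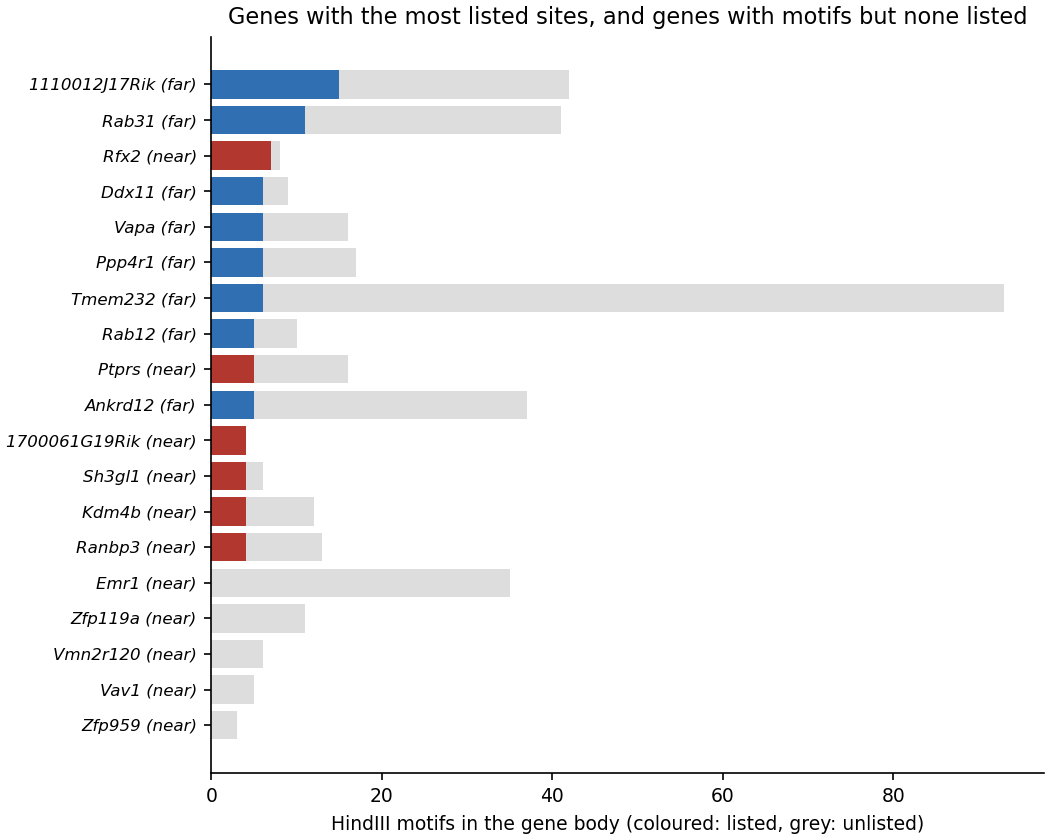
HindIII motifs per gene body, listed (red in the near region, blue in the far region) and unlisted (grey), for 14 of the 15 genes with the most listed sites and the 5 genes with the most motifs and no listed site. Rfx2 and 1700061G19Rik are almost or wholly coloured, Tmem232 is almost wholly grey, and Emr1 has 35 motifs and no listed site.

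Of 84 gene starts inside the 2 regions, 48 lay within 5 kb of a listed site and 64 within 10 kb, and the median distance was 3.40 kb. The closest was that of Tmem146 (now Catsperd), for a subunit of the sperm calcium channel, with a listed site 1 base from its annotated start. The start of Kdm4b lay 31 bases from a site, that of Cd70 52 bases and that of Acsbg2 97 bases. Acer1, for an alkaline ceramidase, followed at 185 bases, Ptprs at 217 bases and Lonp1, for the protease of the mitochondrial matrix, at 257 bases. Pot1b, for a telomere protein, lay at 266 bases, 2410015M20Rik (now Micos13) at 317 bases and Slc25a23, for a carrier of the inner mitochondrial membrane, at 318 bases. All 10 of these genes lay in the near region, which holds most of the gene starts. In the gene body itself Cd70 had 1 motif and Slc25a23 had 2, none of them listed, and 2410015M20Rik had no motif.

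No gene of the far region had motifs but no site, and 18 genes of the near region did. Emr1 (now Adgre1), which encodes the macrophage antigen F4/80, had 35 motifs of which none was listed (0%, upper limit 10.0%), 21 of them with unique flanks. Zfp119a had 11 and Zfp959 had 3 unlisted motifs, and the vomeronasal receptor gene Vmn2r120 had 6. Vav1, for a guanine nucleotide exchange factor of blood cells, differed in base composition. It lay in the GC-rich block, at a median GC content of 47.5%, and none of its 5 motifs was listed (upper limit 52.2%), a bound that does not set it apart from its neighbours.

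Grouped by function, all 7 genes of chromatin and DNA replication held a site, where 75.0% of all genes with a motif did. Of their motifs 17 of 46 were listed (37.0%, 23.2 to 52.5%). All 7 lie in the GC-rich block of the near region, where the share over all motifs was 36.5%. Uhrf1, which maintains DNA methylation, held 1 of 4 and Chaf1a, the large subunit of chromatin assembly factor 1, held 2 of 6. Safb and Safb2, for scaffold attachment factors, held 2 of 3 and 3 of 5, and Mllt1, for a protein of the super elongation complex, held 3 of 11.

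Among genes of membrane traffic, Rab31, Rab12, Vapa and Sh3gl1 held the sites given above, Trip10, for an adaptor of Cdc42 signalling, held 2 of 2, and Ubxn6 had 2 unlisted motifs. The 3 perilipin genes, whose proteins coat lipid droplets, lie in the GC-rich block, and each held a site: Plin4 2 of 2, Plin5 1 of 2 and Plin3 1 of 3. Together they had 4 of 7 (18.4 to 90.1%), an interval that holds the 36.5% of the block. Transcription and RNA had 15 of 50 motifs listed (exact 95% interval 17.9 to 44.6%), of which 7 were in Rfx2, and the interval holds the 21.3% over both regions. Khsrp, for an RNA-binding protein, held 2 of 3 and Gtf2f1, for a subunit of TFIIF, 1 of 1, while Dus3l had 1 unlisted motif. Rpl36, for a protein of the large ribosomal subunit, had no motif in its body of 0.849 kb, and its start lay 3.31 kb from a listed site.

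Mitochondrial genes had 6 of 21 motifs listed (28.6%, 11.3 to 52.2%), an interval that holds the 21.3% over both regions, with Ndufv2 at 3 of 13, Slc25a41 at 2 of 2, Lonp1 at 1 of 4 and Slc25a23 at 0 of 2. The secreted signals Twsg1, an antagonist of bone morphogenetic proteins, and Nrtn, a neurotrophic factor, held 3 of 8 and 1 of 1. The receptor tyrosine phosphatases were unlike each other, with 5 of 16 in Ptprs and 3 of 62 in Ptprm, and the total of 8 of 78 (10.3%, 4.53 to 19.2%, against 21.3% over both regions) rests mostly on the motifs of Ptprm.

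Few motifs were listed in the immune genes, most of whose motifs lay in a pair of long AT-rich genes. Innate immunity and TNF ligands had 4 of 86 motifs listed (4.65%, 1.28 to 11.5%), in Tnfaip8l1 (2 of 4), C3 of the complement system (1 of 6) and Emr4 (now Adgre4, 1 of 32). Emr1 and Emr4 alone supplied 35 and 32 of the 86 motifs, at median GC contents of 41.0% and 38.5%. Over both regions 21.3% of motifs were listed, and among near motifs under 42% GC 4.13% (10 of 242). Cd70, Tnfsf14, Ticam1 and Gpr108 had 1 unlisted motif each. The vomeronasal receptors Vmn2r118 and Vmn2r120 had 1 of 14 motifs listed (7.14%, 0.181 to 33.9%), an interval that holds the 21.3% over both regions. The lists differ in base composition and in how many of their motifs are unique, whose part in these shares was not tested.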

How the data were processed

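Per the study's methods, the authors selected reads by the bait primer at their start and aligned the remaining bases with BWA (version not given in the sources used here) to mm9 and matched them to HindIII sites. On the bait chromosome they scored windows of 100 HindIII sites against a background of 3000 and selected them by a permutation-based false discovery rate. Regions were called per replicate. The deposited table of sites has no column for the replicate, and how it draws on each replicate is not given: all listed sites of these regions lay in replicate 1 regions. The 3 files hold positions only, with no counts or scores.

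Sites were matched by start to HindIII motifs of NCBIM37 (mm9), annotated with GENCODE M1. Coordinates count from 1. Motifs were taken from replicate 1 regions that overlap a replicate 2 region by at least 1 bp, without the 2.04 Mb around Pou5f1 that hold no listed site (498 motifs). Current gene names came from RefSeq (GRCm38.p6), which matched 84 of 85 genes. Shares have exact 95% intervals, medians have order-statistic intervals, and differences combine these. The functions were tested on simulated data. Python 3.11.15, pandas 2.3.3 and scipy 1.17.1 were used.

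The members and lists were chosen with earlier results of these data known. Named genes are the 15 with the most sites (ties by share), the 10 with a start nearest a site, the 5 with the most motifs and no site, and members of 9 functional lists. A gene among these, and the total of the list that holds it, are not reported here. Alternatives were other region limits, unique flanks, DpnII on both sides, each region alone, leaving out the regions of each replicate, and GC classes. The GC classes, the division of the near region by GC content and the 2 sites with repeated flanks were added after the data were seen.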

Additional observations from a re-analysis of the deposited data

How the results depend on the processing

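Of 69 recomputed values, 46 kept their direction and moved less than their interval, 14 moved more and 9 changed sign. The listed share of the near region was 26.3% with unique flanks. The difference between the near and far regions was -1.03 percentage points in the stretch covered by both replicates, -0.581 in merged regions, -1.59 with DpnII on both sides and 3.05 with unique flanks. By GC class it was -8.53 (under 42%), -8.44 (42 to 46%), -0.611 (46 to 50%) and 1.94 (50% or more). Leaving out replicate 1 means taking motifs from replicate 2 regions alone, with the same listed sites, since these are not separated by replicate. It gave -1.81. The main motifs are those of replicate 1 regions, so leaving out replicate 2 could change none of these values (0.124 here) and is not counted above. The closer regions exceeded the near and far regions by 15.8 percentage points when replicate 1 was left out (19.3 without replicate 2), by 14.9 at 42 to 46% GC and by 11.4 at 46 to 50% GC. The first setting adds motifs covered by replicate 2 alone, such as 62 and 65 in closer regions, none of them listed. It also drops motifs covered by replicate 1 alone. The near and far regions exceeded the farther ones by 5.75 in merged regions and by 7.28 without replicate 1 (2.11 without replicate 2). Both settings add motifs covered by replicate 2 alone, none of which was listed, and the second also drops those covered by replicate 1 alone. The value was 4.55 with unique flanks and 2.18 in the stretches covered by both replicates. By GC class the values were -9.92 (under 42%), 0.567 (42 to 46%), 10.0 (46 to 50%) and 15.9 (50% or more). The share of the densest bin was 60.0% in bins of 50 kb and 52.6% in bins of 200 kb. For listed minus unlisted motifs, the difference inside genes was 18.1 in the near and -0.733 in the far region and fell from 8.88 to 4.76 (-2.52 to 11.7) with unique flanks, and the difference in median GC content 7.50 and 1.99. The difference in having a listed neighbour was 33 and 6.17, and 8.08 when both neighbours had to be listed (19.9 with either neighbour over both regions). Where no cause is given, the cause was not tested.

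A stricter score could not be tried, since the files hold none. No paired analysis was possible because the table of sites does not separate the replicates and there is 1 group. The depth of single sites is not in these files. The intervals cover counting error only, and 2 replicates do not allow a p-value for any share.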

Other observations

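At the far end of the near region, both the GC-rich block and the listed sites stopped while the called region went on. The last 4 bins of 100 kb, centred 21.91 to 22.21 Mb from Pou5f1, held 27, 30, 42 and 23 motifs, of which 15, 19, 21 and 14 had unique flanks, and none was listed. Of the 131 unlisted motifs after the last site, 28 were covered by replicate 1 alone. The start of the far region held sites that replicate 2 did not cover. Its first bin, centred at 29.91 Mb, had 6 of 20 motifs listed (exact 95% interval 11.9 to 54.3%) at a mean GC content of 40.3%, and the next bin had 0 of 26 at 39.2%. Pot1b, in the AT-rich stretch before the GC-rich block, held 4 of 21 motifs (19.0%, 5.45 to 41.9%) at a median GC content of 39.6%, and its start lay 266 bases from a listed site.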
